A study of Homo sapiens with 6 samples.

Results

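The transcription factors described here are the 4 muscle regulatory factors MYOD1, MYF5, MYF6 and MYOG and the 3 MEF2 proteins MEF2A, MEF2C and MEF2D. All probes that the array files name for these 7 genes were taken, which gave 10 of the 41000 probes on the array, for 7 of the 17843 genes that could be named on it. After removal of probes that were not found on more than 1 array, 9 of the 10 remained among 36469 probes, and the probe lost was that of MYF5. RH36 is a single established cell line of embryonal rhabdomyosarcoma (ERMS), a tumour of cells committed to the skeletal muscle lineage, and it lacks the PAX3/FOXO1 fusion. It was transfected with 10 nM of a precursor of miR-27a (pre-miR-27a, 3 arrays) or with a negative control precursor (pre-control, 3 arrays). Per the labels the pre-miR-27a cells were taken 48 h after transfection, and the labels give no such time for the pre-control cells. The comparison asks which genes differ in level once miR-27a is raised in ERMS cells.

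MYOD1, MYF5, MYOG and MYF6 are basic helix-loop-helix proteins that pair with E proteins and bind the E-box. MYF5 and MYOD1 act early, in committed myoblasts, MYOG acts when myoblasts begin to differentiate and fuse, and MYF6 is kept on in mature fibres. MEF2 proteins do not start the muscle programme by themselves but work with the muscle regulatory factors at muscle promoters, and rhabdomyosarcoma cells typically carry MYOD1 and MYOG without completing differentiation.

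The mature miRNA made from the transfected precursor and the promoters of MYOG and MYF6 are shown because the first is the agent that was added and the others belong to members with unlike patterns, MYOG with groups that did not overlap and MYF6 with groups that did. The sequences are those of RefSeq on GRCh38.p14, written 5′ to 3′. The miRNA lies at chr19:13836447-13836467 on the minus strand, with its seed (bases 2 to 8) in capitals. The promoters run from 250 bases before to 50 bases after the annotated start, MYOG at chr1:203085963-203086262 on the minus strand and MYF6 at chr12:80707384-80707683 on the plus strand, with E-boxes and MEF2 sites in capitals.
hsa-miR-27a-3p: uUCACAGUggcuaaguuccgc
MYOG: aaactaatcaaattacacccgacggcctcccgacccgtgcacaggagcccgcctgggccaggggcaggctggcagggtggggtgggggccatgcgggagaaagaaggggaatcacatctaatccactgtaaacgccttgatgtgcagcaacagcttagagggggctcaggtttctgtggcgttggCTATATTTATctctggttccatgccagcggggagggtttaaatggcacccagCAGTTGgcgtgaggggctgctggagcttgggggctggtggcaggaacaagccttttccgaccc
MYF6: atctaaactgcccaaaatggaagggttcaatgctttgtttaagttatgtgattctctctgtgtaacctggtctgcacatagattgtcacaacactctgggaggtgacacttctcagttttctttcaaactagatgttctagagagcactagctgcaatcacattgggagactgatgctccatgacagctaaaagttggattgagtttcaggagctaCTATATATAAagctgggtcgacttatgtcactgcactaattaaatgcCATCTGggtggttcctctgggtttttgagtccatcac

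The E-box was searched as CANNTG and the MEF2 site by its A/T-rich consensus, both of which read the same on either strand, and no match of one overlapped a match of the other in these windows. The MYOG window held 1 MEF2 site beginning at −65 and 1 E-box beginning at −13 relative to the annotated start. The MYF6 window held 1 MEF2 site at −34 and 1 E-box at 13. An E-box was found in 68.7% of the 35116 promoters searched, a MEF2 site in 8.3% and both in 6.08%. The 2 windows shown do not stand for all members. Among 14 promoters of 6 members, those of MYF5, MEF2A and MEF2D did not hold both motifs, and only some of MEF2C did. The MEF2D window held 2 E-boxes and 0 MEF2 sites. A match of letters is a description and not a bound site.

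All values below are log2 normalized signals, and differences are pre-miR-27a minus pre-control on that scale. Signals of different probes were not set against each other. On the pre-control arrays every probe of MYOD1, MYOG, MYF6, MEF2A, MEF2C and MEF2D was well above background on 3 of 3 arrays, and likewise on 3 of 3 pre-miR-27a arrays. MYF5 was the exception. Its probe (chr12:79637193-79637252, hg18) was found as a spot on 3 of the 6 arrays and was well above background on 0, with processed intensities of 7.77, 7.46 and 6.00 on the pre-control arrays and 5.52, 2.81 and 4.41 on the pre-miR-27a arrays. MYF5 therefore has only an upper bound here and was not compared.

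Among the other skeletal muscle markers the line carried DES, CDH15, CHRNA1, ACTC1 and NCAM1 well above background on all 6 arrays. The epithelial markers EPCAM and CDH1, the blood markers PTPRC and HBB, the endothelial marker PECAM1 and the smooth muscle marker MYH11 were well above background on 0 arrays. KRT14, an epithelial keratin, and CD3E, a T cell receptor subunit, were well above background and were called lower (−0.82, with 1 pre-miR-27a array missing, and −0.44), and a part of other cell types in the results was not tested. Between 69.9% and 78.0% of spots were well above background on an array and 0 were saturated. Local background around the member spots was 69 to 94 intensity units on the pre-control arrays and 47.5 to 58.5 on the pre-miR-27a arrays. Each group was hybridised on a slide of its own, and an effect of the slide cannot be told apart from that of the precursor.

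In the fit without a replicate block, MEF2D was the only member gene with a called probe, which fell. In the fit with the block, MYOD1 and both MYOG probes were called lower as well. The brighter MEF2D probe (chr1:154703209-154703268, hg18, NM_005920) read 11.79, 12.02 and 11.81 on pre-control arrays 1, 2 and 3, and 11.17, 11.11 and 11.11 on pre-miR-27a arrays 1, 2 and 3. Every pre-miR-27a array lay below every pre-control array, and the spread within each group was small beside the gap. The difference was −0.75 (SE 0.09, 95% interval −0.98 to −0.52, limma adjusted p = 0.0190), so the pre-control level was 1.68-fold the pre-miR-27a level. Without the block 1 of the 9 member probes was called lower and 0 higher, where 3.88% of all probes were called lower and 7.83% in either direction. With 3 arrays a group, the call was lost when any array other than pre-control replicate 1 was left out (adjusted p 0.0424 to 0.0770 over the 6 omissions, differences −0.79 to −0.67).

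The second MEF2D probe, which the files place between positions 154705383 and 154711529 of chromosome 1, read 7.65, 7.52 and 7.63 on the pre-control arrays and 7.38, 7.25 and 7.19 on the pre-miR-27a arrays. It also lay lower on every pre-miR-27a array. Its difference was smaller, −0.33 (SE 0.09, adjusted p = 0.0888), and fell short of the threshold in both fits (0.0599 with the block), so the MEF2D probes had the same sign and not the same size. Under normexp background correction it was −0.12.

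MYOG, the differentiation factor, had the largest difference of the members. Its first probe (chr1:201319494-201319553, hg18, NM_002479) read 9.72, 10.40 and 10.69 on the pre-control arrays and 8.87, 9.42 and 9.67 on the pre-miR-27a arrays. The highest pre-miR-27a array lay just under the lowest pre-control array, and within each group replicate 1 was the lowest. Without a block for the replicate number the difference was −0.95 (SE 0.32, 95% interval −1.74 to −0.16, adjusted p = 0.140) and did not pass.

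Arrays of the same replicate number resembled each other, so each pre-miR-27a array can be set against the pre-control array of its number. On that footing the differences of the first MYOG probe were −0.85, −0.98 and −1.02. Fitted with a replicate block, the probe had an adjusted p of 0.0334, in a fit that called 7.62% of all probes lower. The second MYOG probe (chr1:201319485-201319544) overlaps the first in position, so it is no separate measurement of another part of the gene. It read 9.62, 10.22 and 10.49 on the pre-control arrays and 8.83, 9.19 and 9.43 on the pre-miR-27a arrays, again with no overlap. It differed by −0.96 (SE 0.27, adjusted p = 0.0920, 0.0334 with the block).

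MYOD1, the factor that sets and keeps the myoblast identity, showed a smaller difference in the same direction. Its probe (chr11:17699518-17699577, hg18, NM_002478) read 12.19, 12.42 and 12.53 on the pre-control arrays and 11.82, 11.97 and 12.01 on the pre-miR-27a arrays. No value of one group reached into the other. The difference was −0.45 (SE 0.12, 95% interval −0.75 to −0.16, adjusted p = 0.0787), and with the replicate block the adjusted p was 0.0363. The differences within the replicate numbers were −0.38, −0.46 and −0.52.

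**Figure D1:**
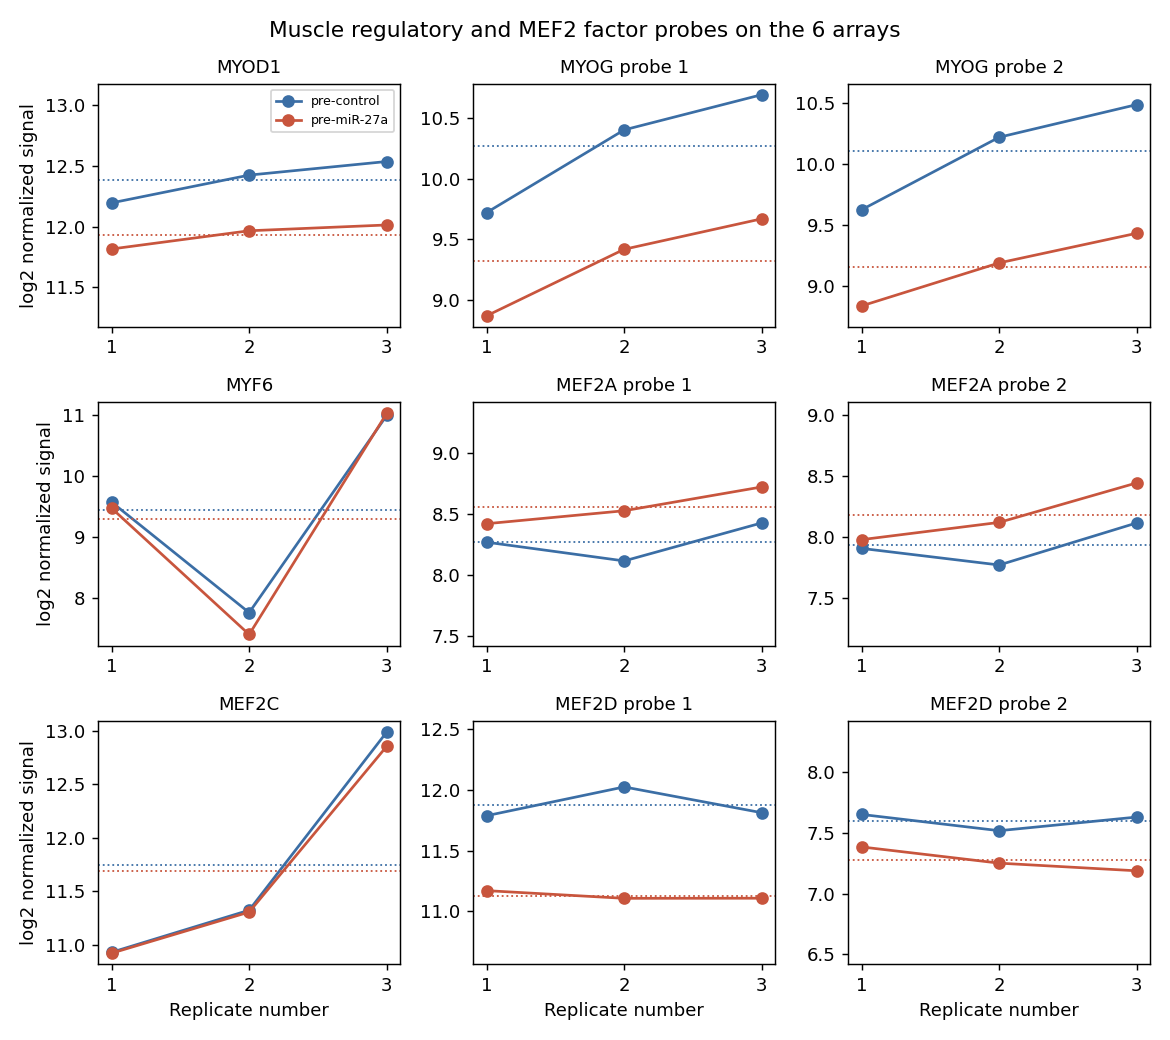
The log2 normalized signal (vertical axis, each panel with its own range) of the 9 member probes is plotted against the replicate number, with pre-control in blue, pre-miR-27a in red, 1 point per array and group means as dotted lines. The MYOD1, MYOG and MEF2D lines lie apart with pre-control above, while the MYF6 and MEF2C lines nearly coincide and move with the replicate number.

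MYF6, the factor of mature fibres, varied more between replicate numbers than between the groups. Its probe (chr12:79627090-79627149, hg18, NM_002469) read 9.57, 7.76 and 10.99 on pre-control arrays 1, 2 and 3, and 9.47, 7.40 and 11.02 on pre-miR-27a arrays 1, 2 and 3. In both groups replicate 3 was the highest and replicate 2 the lowest, with a span of 9.41-fold among the pre-control and 12.4-fold among the pre-miR-27a arrays. The groups overlapped fully. The difference was −0.14 (95% interval −3.07 to 2.79, adjusted p = 0.959). With the replicate block the interval narrowed to −0.44 to 0.15 (adjusted p = 0.378).

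MEF2C, the MEF2 protein most tied to differentiating muscle, also varied mainly with the replicate number. Its probe (chr5:88052573-88052632, hg18, NM_002397) read 10.93, 11.33 and 12.99 on the pre-control arrays and 10.92, 11.31 and 12.86 on the pre-miR-27a arrays. Replicate 3 stood above the others in both groups, with a span from lowest to highest of 4.16-fold and 3.82-fold, and same-numbered arrays nearly coincided. The difference was −0.05 (95% interval −1.86 to 1.75, adjusted p = 0.975), and −0.22 to 0.12 was the interval with the block (adjusted p = 0.553).

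MEF2A, a broadly expressed MEF2 protein, was the only member gene with a positive difference. Its first probe (chr15:98070865-98070924, hg18, NM_005587) read 8.27, 8.11 and 8.43 on the pre-control arrays and 8.42, 8.53 and 8.72 on the pre-miR-27a arrays. The groups overlapped slightly, since pre-control replicate 3 lay just above pre-miR-27a replicate 1. The difference was 0.29 (SE 0.12, 95% interval −0.02 to 0.60, adjusted p = 0.230), and that of the second probe (chr15:98071075-98071134) was 0.25 (adjusted p = 0.395). That of the second probe was 0.10 under normexp background correction and 0.12 without pre-miR-27a replicate 3. Neither passed with the block (adjusted p = 0.0876 and 0.130). MEF2A is among the genes that the study listed as predicted miR-27a targets, a list chosen partly on these arrays.

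**Figure D2:**
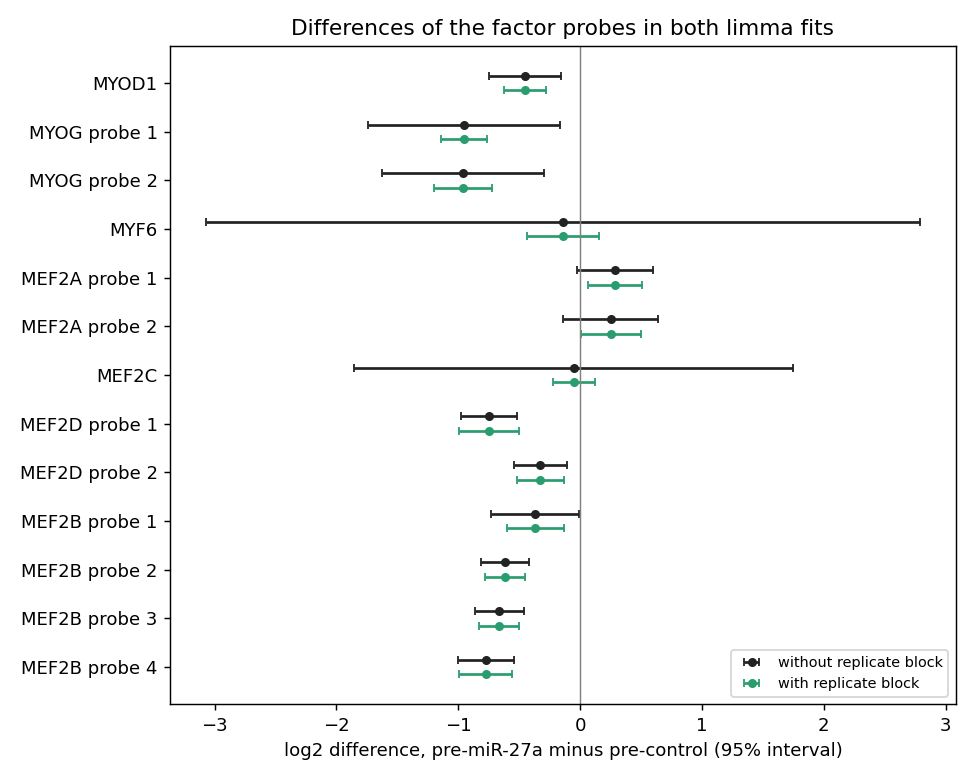
Points give the log2 difference, pre-miR-27a minus pre-control, of each member probe and of the 4 MEF2B probes, and bars give 95% intervals without (black) and with (green) the replicate block. The MYF6 and MEF2C intervals shrink most with the block, and those of MYOD1, MYOG, MEF2D and MEF2B lie below 0 in both fits.

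Over the 9 member probes, 7 had a negative difference and the median was −0.33, against a median of −0.02 over all 36469 probes. The groups did not overlap for 5 probes, all lower on the pre-miR-27a arrays, where 17.8% of all probes were non-overlapping and lower and 14.8% non-overlapping and higher. With the replicate block 4 of the 9 were called lower and 0 higher, where 7.62% of all probes were called lower and 7.24% higher. Both counts include both MYOG probes, which overlap in position and are no separate measurements, and the count without overlap also includes both MEF2D probes. An exact two-sided permutation test of 3 arrays against 3 cannot go below p = 0.1, which MYOD1, both MYOG probes and both MEF2D probes reached. It gave 0.2 for both MEF2A probes, 0.7 for MEF2C and 0.8 for MYF6.

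MEF2B, the remaining gene of the family, is no member but has 4 probes under that name in the files. The dimmest lies at chr19:19118618-19118677 (hg18) and carries NM_005919, an accession now given to the BORCS8-MEF2B readthrough gene. The other 3 lie apart from it, between positions 19149057 and 19153747, and whether they read MEF2B, BORCS8 or the readthrough was not settled here. From the brightest probe to the dimmest the differences were −0.37, −0.61, −0.66 and −0.78. The last 3 were called (adjusted p = 0.0195, 0.0186 and 0.0186) and the first was not (0.195). When 1 array was left out, the second probe was called in 0 of 6 cases and the third and the fourth in 1 of 6, without pre-control replicate 1.

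The genes that the factors act on were taken as a list of 33 muscle genes, of which 31 had a kept probe. A gene is given by its brightest probe. In the limma fit without the block 0 were called lower and 0 higher, where 4.04% of all 16612 genes were called lower and 2.61% higher. At an unadjusted p under 0.05 there were 4 of 31, all lower, where 22.9% of all genes had such a p in either direction. SAM, a permutation method, was run here without pairs at a false discovery rate of 5% and called 0. The study also used SAM but names a paired analysis at a lower rate. The median difference over the list was −0.20, against −0.04 over all genes. With the block, which called 8.05% of all genes lower and 5.46% higher, 5 were called lower and 1 higher.

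The 4 largest of those lower with the block were TNNI1, the slow troponin I, at −0.83 (block adjusted p = 0.0336), TNNC1, troponin C of slow and cardiac muscle, at −0.58 (0.0402), ITGA7, a laminin receptor subunit, at −0.48 (0.0353) and CDH15, muscle cadherin, at −0.35 (0.0457). MYH8, the perinatal myosin heavy chain, was the one called higher with the block, at 0.40 (0.0442). TNNI1 read 11.78, 12.52 and 12.66 on the pre-control arrays and 11.14, 11.56 and 11.76 on the pre-miR-27a arrays, so the groups did not overlap. MYH8 read 11.26, 11.59 and 14.14 against 11.57, 12.08 and 14.53, with replicate 3 far above the others in both groups.

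That order was common in the list. Replicate 3 was the highest of its group both times in 26 of the 30 genes read on all 6 arrays (86.7%), where 15.6% of all genes had it, and in 7 of the 9 member probes. The tally was made after the values were seen. CKM, muscle creatine kinase, read 8.31, 8.33 and 10.34 on the pre-control arrays and 7.85, 8.08 and 10.07 on the pre-miR-27a arrays. TNNT3, fast troponin T, read 10.98, 10.72 and 13.06 against 10.61, 10.25 and 13.01. Both had replicate 3 well above the other 2 in each group, and both were named after their values were seen.

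A test of the replicate number in the blocked fit, added after the data were seen, passed for 0 of 36469 probes after adjustment and for 9798 at an unadjusted p under 0.05. MYF6 and MEF2C had an adjusted p of 0.0721 in it. Replicate number is also the position of the array on its slide, and number and position cannot be told apart.

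**Figure D3:**
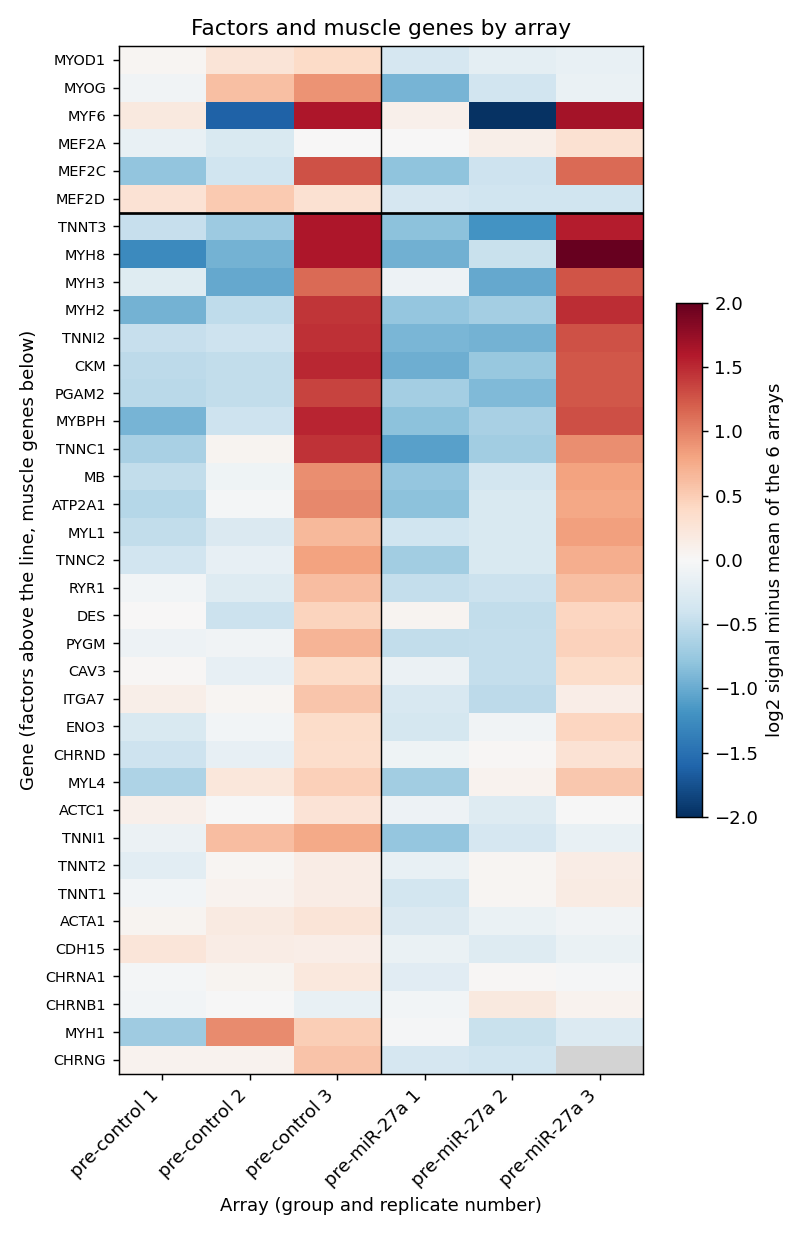
Colour gives the log2 signal minus the mean of the 6 arrays for 6 factors (above the line, brightest probe) and 31 muscle genes (below), with arrays in columns and grey for a missing value. In most muscle genes, as in MYF6 and MEF2C, replicate 3 is the warmest column in both groups.

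The E proteins, ID proteins and other helix-loop-helix or inhibitory partners of the muscle regulatory factors were read as a list of 12, all measured. In the limma fit without the block 0 were called, with 3 at an unadjusted p under 0.05 (22.9% of all genes) and 0 by SAM. With the block 2 were called lower and 2 higher, where 8.05% and 5.46% of all genes were. ID4, an inhibitor that sequesters E proteins, differed by −0.45 (block adjusted p = 0.0427) and TWIST1, a repressor of myogenesis, by −0.38 (0.0371). TCF4, an E protein, differed by 0.35 (0.0418) and MSC, a repressor known as MyoR, by 0.41 (0.0363). The median of the list was −0.08.

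Of 14 enzymes and cofactors that act on MEF2 proteins, 1 fell and 1 rose, where 4.04% of all genes were called lower and 2.61% higher. MAPK7, the ERK5 kinase that phosphorylates and activates MEF2, read 11.96, 11.98 and 11.80 on the pre-control and 11.54, 11.51 and 11.43 on the pre-miR-27a arrays, a difference of −0.42 (SE 0.09, adjusted p = 0.0447). EP300, the acetyltransferase that serves MEF2 and MYOD1 as coactivator, read 8.20, 8.07 and 8.01 against 8.78, 8.97 and 8.64, a difference of 0.70 (SE 0.11, adjusted p = 0.0276). In neither gene did the groups overlap. The class IIa histone deacetylases HDAC4, HDAC5, HDAC7 and HDAC9, which repress MEF2 targets, did not pass, with differences of 0.19, −0.27, 0.11 and −0.13. The study took HDAC9 from predicted targets that its paired SAM called on these arrays, a test unlike the one used here. Its reporter assay showed no significant repression through the HDAC9 3′-UTR. The calls of MAPK7 and EP300 were lost when any of the 6 arrays was left out, and that of MAPK7 also under 75th percentile scaling and by SAM.

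Of 9 paired-box, homeobox and EYA factors that stand upstream of the muscle regulatory factors, 0 were called by limma in either fit and 0 by SAM, with 2 at an unadjusted p under 0.05 (22.9% of all genes), and their median difference was 0.05. PAX3 had the highest difference, 0.43, and LBX1 the lowest, −0.20.

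**Figure D4:**
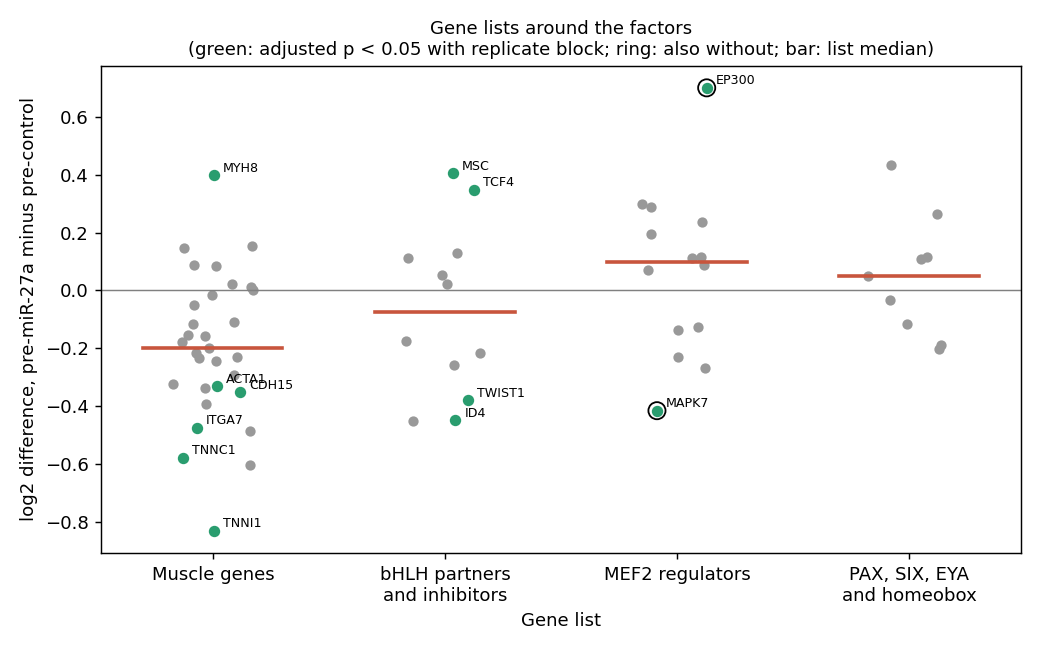
Each point is a gene of 4 lists placed by its log2 difference, pre-miR-27a minus pre-control, with the list median as a bar. Green points passed the adjusted threshold with the replicate block and ringed points also without it, which were MAPK7 and EP300.

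The genes whose brightest probe ran most like a member over the 6 arrays were sought among 12791 genes well above background on all 6, by Pearson r, as a description over 6 arrays that share groups and replicate numbers. MYOD1 ran most like RPGR and RHBDD2 (r of 0.9974 and 0.996), and MYOG most like UCP2 and TNNI1 (0.9961 and 0.996). MYF6 ran most like DES, the muscle intermediate filament protein, and MEG3, a long noncoding RNA (0.9977 and 0.9971), and MEF2C most like NEB, the giant thin filament protein nebulin, and RNF182 (0.9973 and 0.997). MEF2D ran most like PTGIR and KCNK15 (0.9998 and 0.9994) and MEF2A most like ODR4 and JAK2 (0.9858 and 0.9857). Between members the r was 0.98 for MYOD1 with MYOG, 0.88 for MYOD1 with MEF2D, 0.71 for MYF6 with MEF2C, −0.06 for MYF6 with MEF2D, −0.51 for MYOD1 with MEF2A and −0.83 for MEF2A with MEF2D.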

How the data were processed

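RNA of 6 RH36 cultures, 3 per group, was labelled with Cy3 and hybridised to 1-colour Agilent arrays. The authors deposited the processed intensity of each spot from Feature Extraction 10.5.1.1, already background-subtracted within the array and not normalized between arrays, with mean intensity, local background and flags. Log2 values of 33169 probes, which the authors deposited as a separate table, differed from those computed here by a median of 0.0041 and at most 1.16, and served as an alternative. Precision is limited by the number of arrays. The paper's methods give another precursor concentration and time than the labels, whose values are printed here.

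Control spots were left out, log2 intensity was quantile normalized, spots without the found flag became missing values, replicate spots were averaged, and probes missing on more than 1 array were removed. limma 3.58.1 in R 4.3.3 compared the groups, with Benjamini-Hochberg adjustment over 36469 probes and a threshold of 0.05, and was tested on simulated data. Figures were drawn with matplotlib 3.10.9. Symbols were matched through a RefSeq table of GRCh38.p14 (25260 of 36469 probes). Positions of probes are those of the files, on hg18, and exon or UTR annotation of that build was not used here.

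Whether the replicate numbers, given by the labels, pair the arrays was checked over 31717 probes. After subtraction of the group mean, arrays sharing a number correlated at 0.40, 0.46 and 0.41, and other pairs at −0.27 to −0.12. The subtraction pushes other pairs below 0 where arrays sharing a number correlate above it, so the negative values are no separate evidence. The numbers were taken as pairs in the fit with the block. Whether this reflects paired cultures or position on the slide was not tested. The fit without the replicate block is the main one, and it does not use this pairing. Between the fits the calls of MYOD1 and both MYOG probes differ. The labels call the arrays biological replicates.

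The members and gene lists were chosen with earlier results of these data known. All member probes are named, MEF2B as the other family member, in each list the called genes with the largest change, up to 4 per direction, and for each member the 2 genes with the highest r.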

Additional observations from a re-analysis of the deposited data

How the results depend on the processing

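With all arrays, the brighter MEF2D probe was called in 8 of 8 limma settings (−0.75 to −0.54, the latter for the mean of both probes) and by SAM at a false discovery rate of 5%. These settings covered scaling, background, filter, variance model, replicate block, choice of probe and the values the authors deposited. Without 1 array it ran from −0.79 to −0.67, and the number of member probes called from 0 to 1. Normexp called 3 member probes lower, with MYOD1 at −0.43 and the second MYOG probe at −0.87. The replicate block called 4, with MYOD1 at −0.45 and the MYOG probes at −0.95 and −0.96, and it changed no other member call. It called 5 muscle genes lower and 1 higher, and 2 partners lower and 2 higher. Normexp called 1 muscle gene lower, 1 partner lower and 1 partner higher, and 75th percentile scaling 1 muscle gene and 0 MEF2 regulators lower. Without 1 array, 0 MEF2 regulators were called in either direction. The MEF2C difference ran from −0.63 to 0.57 and was positive without pre-control replicate 3 (0.57), pre-miR-27a replicate 1 (0.33) or pre-miR-27a replicate 2 (0.14). That of MYF6 ran from −1.01 to 0.81 and was positive without pre-control replicate 3 (0.63) or pre-miR-27a replicate 2 (0.81). Over all 36469 probes, 1416 were called lower and 1440 higher, against 1981 and 1275 under 75th percentile scaling (median difference −0.09 in place of −0.02). Normexp called 1742 lower and 1797 higher, the block 2780 and 2641, and SAM 571 and 1244. Without 1 array, limma called 531 lower and 745 higher (without pre-control replicate 1), 31 and 50 (without pre-control replicate 3) and 0 in the other 4 cases, where 7178 to 7686 probes had an unadjusted p under 0.05. Muscle genes with replicate 3 highest in both groups numbered 24 to 27 of 30 in the settings tried, an alternative added after seeing the data. Signal over background limits MYF5 and the muscle gene MYH1, which were well above background on 0 arrays. The cause of these changes was not tested.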
